A study of Mus musculus with 2 samples.

Results

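The 853 cells described here are the 10% of tumour cells with the highest share of RNA from Lum, Pdgfra, Islr, Gas1 and Hic1, out of 8531 tumour cells in 2 libraries of MC38 tumours, and are called high-score cells. They were selected on these measured values, by a score. The score of a cell is its summed unique molecular identifiers (UMIs, each standing for 1 captured RNA molecule) of these 5 genes divided by all its UMIs. A tumour cell was a barcode with at least 200 genes, at most 20% mitochondrial UMIs, 0 UMIs of the leukocyte gene Ptprc, at least 1 UMI of the oncofetal gene Hmga2 and fewer than 10 UMIs of C1qa, C1qb and C1qc together. The highest scores of both libraries pooled gave 291 high-score cells in the RSPO3-OE library and 562 in the Ctrl library. The other tumour cells numbered 3922 in RSPO3-OE and 3756 in Ctrl.

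MC38 is a mouse colon carcinoma line, grown here as tumours in C57BL/6 mice, and the labels call the tissue a xenograft. The RSPO3-OE library came from MC38 cells overexpressing RSPO3, an R-spondin, a secreted protein that makes cells respond more strongly to Wnt ligands, and the Ctrl library from control MC38 cells. Of the vector, the clonality of the lines, the number, age and sex of the mice, the site and the harvest time the labels say nothing. The RSPO3-OE library held 155615189 UMIs in 7314 barcodes and the Ctrl library 143881763 in 7301, of which 7164 and 6990 passed the filters on genes and mitochondrial UMIs. Each group has 1 library, so no difference has a replicate check and no test was made. Cells are not replicates, and every interval is a 95% interval that covers counting error only.

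Fibroblasts are the mesenchymal cells that build and remodel the collagen matrix of a tissue. In tumours they usually belong to the host, but carcinoma cells that have lost epithelial features can express mesenchymal genes as well. Resting fibroblasts are known for proteoglycans and growth arrest genes, and activated ones for contractile proteins or inflammatory chemokines.

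High-score cells made up a smaller share of the tumour cells in RSPO3-OE. The share was 6.91% in RSPO3-OE (6.16 to 7.72, exact Clopper-Pearson interval), against 13.0% in Ctrl (12.0 to 14.1). Cells at or above the same score with 0 Hmga2 UMIs are outside these counts, and with them the shares were 10.4% in RSPO3-OE and 17.7% in Ctrl. The score is continuous, so the cells are a range of it and not a separate type. The lowest score inside was 8.37 and the highest outside 8.36 score UMIs per 10000 UMIs, from 11 of 13148 UMIs in a RSPO3-OE cell and 8 of 9565 in a Ctrl cell. Within 10% of the lowest score inside lay 142 high-score and 158 other tumour cells. The median score of high-score cells was 11.6 in RSPO3-OE and 12.3 in Ctrl, and 6 of them rested on fewer than 5 score UMIs.

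**Figure D1:**
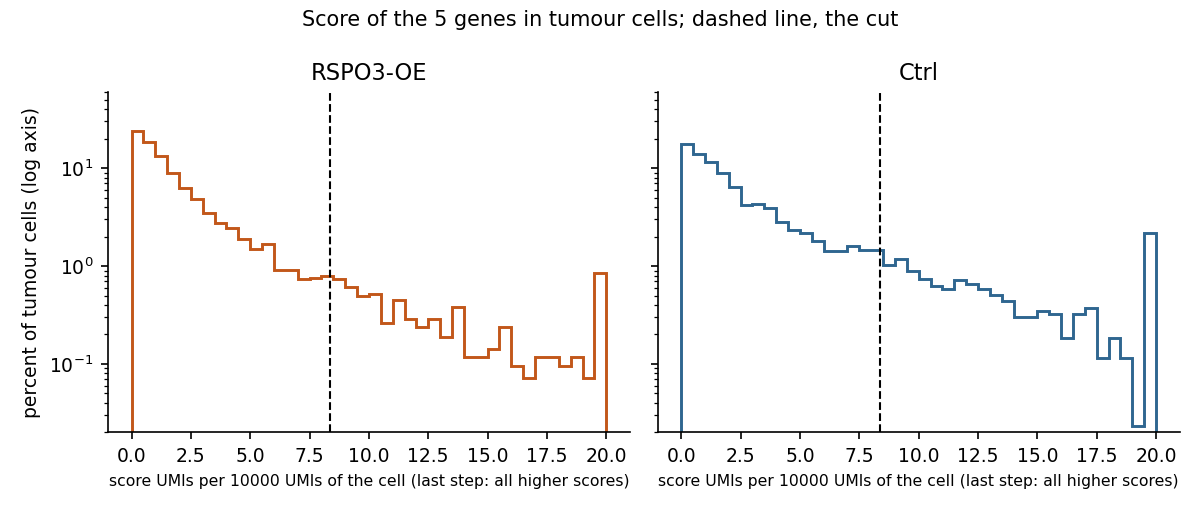
Score of the 5 genes per 10000 UMIs (x axis) against the percent of tumour cells at each score (y axis, log), for RSPO3-OE and Ctrl, with the lowest score inside as a dashed line. Both curves run through the line with no gap, and to the right of it lie 6.91% of RSPO3-OE and 13.0% of Ctrl tumour cells.

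High-score cells were shallower than the rest. Their median depth was 15802 UMIs in RSPO3-OE and 14908 in the Ctrl library, against 26377 and 23076 in the other tumour cells. Their median mitochondrial share was 3.39% in RSPO3-OE and 4.69% in the Ctrl library, against 2.81% and 3.83%. A doublet caller marked 1 high-score cell in RSPO3-OE and 3 in Ctrl, which were kept. The libraries shared 7 barcodes, and 0 of these were high-score cells. The part of depth in the shares and levels below was not tested beyond the thinned and depth-matched values given.

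The 5 score genes are described without a test, since they chose the cells. Gas1 (chromosome 13, 60174405 to 60177365, minus strand, GRCm38) encodes a membrane-anchored protein first found in growth-arrested fibroblasts, which also acts as a Hedgehog co-receptor. It stood at 613 UMIs per 1000000 UMIs (CPM) in the RSPO3-OE and 602 CPM in the Ctrl high-score cells, against 61.5 and 94.8 CPM in the other tumour cells. Islr (chromosome 9, 58156268 to 58204306, minus strand), also called meflin, is a surface protein of mesenchymal stromal cells. It stood at 306 CPM in the RSPO3-OE and 347 CPM in the Ctrl high-score cells, against 45.5 and 46.9 CPM in the others. Of the score UMIs, Gas1 gave 46.5% in RSPO3-OE and 43.9% in Ctrl, and Islr 23.2% and 25.3%. Each captured molecule gives 1 tag at its 3′ end, so these shares are not scaled by gene length. Gas1 held the most score UMIs in 58.8% of RSPO3-OE and 54.6% of Ctrl high-score cells.

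The genes in the working name, Lum and Pdgfra, carried less of the score. Lum (chromosome 10, 97565128 to 97572703, plus strand) encodes lumican, a proteoglycan that binds collagen fibrils. It gave 14.3% of the score UMIs in RSPO3-OE and 9.25% in Ctrl, and stood at 188 CPM in the RSPO3-OE and 127 CPM in the Ctrl high-score cells, against 6.96 and 5.06 CPM in the others. A Lum UMI was read in 41.6% of RSPO3-OE high-score cells (35.9 to 47.5) and 30.8% of Ctrl ones (27.0 to 34.8). Most high-score cells thus held no Lum UMI. Thinned to 2000 UMIs each, so that depth is equal, 21.6% of RSPO3-OE and 14.4% of Ctrl high-score cells held one, against 1.43% and 1.04% of the others. In macrophages, which should lack Lum, the unthinned share was 1.91% in RSPO3-OE and 1.09% in Ctrl, at median depths of 12230.5 and 13084 UMIs. These were 87 Lum UMIs in 24 macrophages in RSPO3-OE and 22 in 13 in Ctrl. Free RNA and barcodes that hold more than 1 cell were not told apart there.

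Pdgfra (chromosome 5, 75152292 to 75198215, plus strand) is a PDGF receptor of mesenchymal cells. A Pdgfra UMI was read in 75.3% of RSPO3-OE and 76.9% of Ctrl high-score cells, or 19.2% and 27.0% when thinned, against 3.26% and 2.60% of macrophages unthinned. Its level was 104 CPM in the RSPO3-OE and 127 CPM in the Ctrl high-score cells, against 13.5 and 19.2 CPM in the other tumour cells. Hic1 (chromosome 11, 75164565 to 75169519, minus strand) encodes a transcriptional repressor known from quiescent mesenchymal progenitors. It stood at 106 CPM in the RSPO3-OE and 169 CPM in the Ctrl high-score cells, against 26.4 and 38.9 CPM in the others. At least 3 of the 5 genes were read in 94.5% of RSPO3-OE and 93.8% of Ctrl high-score cells, against 31.7% and 33.9% of the others.

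Each of the 5 genes was also left out of the score in turn, and the highest 10% of tumour cells chosen by the other 4. The gene left out was at least 1.5-fold higher in the chosen cells in all 10 comparisons (5 genes in 2 libraries), and 1.5-fold is a log2 ratio of 0.585. The cells so chosen were largely the same ones, 243 of 271 in RSPO3-OE and 519 of 582 in Ctrl without Lum, and the 5 genes were picked with earlier results known, so these ratios are a description. Left-out Lum was higher by a log2 ratio of 2.65 (2.48 to 2.82) in RSPO3-OE cells and 2.88 (2.74 to 3.02) in Ctrl. Left-out Pdgfra was higher by 2.66 in RSPO3-OE and 2.45 in Ctrl, and left-out Gas1 by 2.33 and 1.87. The smallest values were those of Hic1, 1.70 in RSPO3-OE and 1.77 in Ctrl. Over 120 such ratios under other settings, the range was 0.96 to 3.37.

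Y-linked genes were near 0 in high-score cells, and the lists of other cell types were mixed. The Y-linked genes Uty, Ddx3y, Kdm5d and Eif2s3y together had 0.198 CPM in the RSPO3-OE and 0.214 CPM in the Ctrl high-score cells, against 136 and 88.7 CPM in macrophages of the same libraries. A Y-linked UMI was read in 1 high-score cell in RSPO3-OE and 1 in Ctrl, and in 77.3% and 67.2% of macrophages. The 14 macrophage genes summed to 177 CPM in the RSPO3-OE and 172 CPM in the Ctrl high-score cells, against 122 and 123 CPM in the other tumour cells and 44107 and 56025 CPM in macrophages. Per cell, the median sum was 145 CPM in the RSPO3-OE and 129 CPM in the Ctrl high-score cells. Of 10 pericyte genes, 3 were at 0 UMIs, Rgs5, Abcc9 and Kcnj8, but the list summed to 134 CPM in the RSPO3-OE and 135 CPM in the Ctrl high-score cells, against 78.1 and 46.9 CPM in the others, and 2 of the 3 with enough UMIs were at least 1.5-fold higher in both libraries. Most of that sum was Pdgfrb, a PDGF receptor that fibroblasts share with pericytes. Of 9 muscle genes 6 were at 0, among them Myod1 and Pax7, while 2 of 3 compared were higher and 1 lower, at a sum of 16.2 CPM in the RSPO3-OE and 4.60 CPM in the Ctrl high-score cells, against 35.4 and 5.62 CPM in the others. Of 7 mesothelial genes 5 were at 0, among them Upk3b and Wt1, and the sum of 78.0 CPM in the RSPO3-OE and 69.2 CPM in the Ctrl high-score cells, against 117 and 154 CPM in the others, was nearly all Msln. The 12 endothelial genes, with Kdr, Tek and Cldn5 at 0, summed to 16.8 CPM in the RSPO3-OE and 7.17 CPM in the Ctrl high-score cells, against 28.5 and 11.3 CPM in the others. Schwann cell genes, with Sox10 at 0, summed to 2.96 and 2.57 CPM in RSPO3-OE and Ctrl high-score cells, T and NK cell genes to 5.53 and 10.2 CPM, and neutrophil genes to 13.6 and 12.8 CPM. Of 15 epithelial genes, 9 were at 0, among them Epcam and Krt18. Lists of 2 mesenchymal lineages were higher. Of 5 adipocyte lineage genes compared 3 were higher in both libraries. Their list summed to 3356 CPM in the RSPO3-OE and 1627 CPM in the Ctrl high-score cells, against 820 and 538 CPM in the others. Of 4 bone and cartilage genes 2 were higher, and the list summed to 4999 and 5073 CPM, against 2660 and 3230 CPM. The part of other cell types in the results below was not tested.

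Markers shared by fibroblasts across tissues were mixed in high-score cells, unlike the matrix genes given further below. Of 16 such markers, 10 had the 50 UMIs needed in each library. Of these, 4 were at least 1.5-fold higher than in other tumour cells of both libraries, Gsn, Scara5, Entpd2 and Cd248, and 0 were lower in both. Over all 11750 genes so compared, 11.4% were higher in both and 9.04% lower. Among cells of 10000 to 20000 UMIs 488 and 503 genes were, against 1340 and 1062 without this limit. With fewer cells, fewer genes can reach 50 UMIs, so these counts do not share 1 total. Since the score chose the cells from the same RNA, all counts and ratios of high-score over other tumour cells are descriptions, and nothing is read from them against these shares. The 16 markers summed to 6284 CPM in the RSPO3-OE and 4089 CPM in the Ctrl high-score cells, against 7808 and 4385 CPM in the others. The sum was thus lower in high-score cells of both libraries, and not every marker behind that is named here. The surface genes Ly6a and Cd34 stood at 1896 and 214 CPM in the RSPO3-OE and 754 and 208 CPM in the Ctrl high-score cells. In the others they stood at 1467 and 258 CPM in RSPO3-OE and 621 and 316 CPM in Ctrl, so Ly6a did not follow the sum. Dpp4 was at 0 UMIs, and Dpt, Thy1, Col14a1 and Fap stood at 0.395, 0.198, 0.198 and 0.988 CPM in the RSPO3-OE and 0.642, 0.642, 0.214 and 1.82 CPM in the Ctrl high-score cells. Of 6 measured myofibroblast genes 0 were higher, with the smooth muscle actin gene Acta2 at 2.57 CPM in the RSPO3-OE and 1.93 CPM in the Ctrl ones. Hmga2, of which the rule required 1 UMI, stood at 152 CPM in the RSPO3-OE and 185 CPM in the Ctrl high-score cells, against 361 and 278 CPM in the others. Because Gas1 and Islr led the score and because the shared fibroblast markers were mixed, the cells are named here by their score only. Every cell held Hmga2 by the rule, so that says nothing of what the cells are.

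The small leucine-rich proteoglycans, which coat collagen fibrils and to which lumican belongs, had the highest median of the lists in which one could be taken. All 6 measured members, Aspn, Ogn, Omd, Prelp, Dcn and Bgn, were at least 1.5-fold higher in high-score cells of both libraries, against 11.4% of all genes. The median log2 ratio was 2.88 in RSPO3-OE and 2.94 in the Ctrl library, against 0.06 and 0.09 over all genes. Aspn, asporin, stood at 795 CPM in the RSPO3-OE and 339 CPM in the Ctrl high-score cells, against 53.7 and 15.7 CPM in the others. Its log2 ratio was 3.89 (3.83 to 3.95) in RSPO3-OE cells and 4.43 (4.35 to 4.52) in Ctrl. Ogn, osteoglycin, had 3.75 (3.67 to 3.84) and 3.99 (3.90 to 4.08), and Omd, osteomodulin, 3.59 (3.44 to 3.75) and 3.47 (3.14 to 3.79). Dcn, decorin, a regulator of fibril width, was abundant throughout, at 6940.5 CPM in the RSPO3-OE and 5107 CPM in the Ctrl high-score cells against 1855 and 1359 CPM in the others.

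Aspn, Omd and Ogn are neighbours on chromosome 13 of GRCm38, on the plus strand within 80059 bases, and all 3 lie inside Cenpp, which runs on the minus strand. The labels do not say how strand was used in counting, and without strand reads of Cenpp and of these genes cannot be told apart. Their RefSeq promoter windows (GRCm38.p6, plus strand, 250 bases before to 50 after the start) are shown because these adjacent genes had the highest ratios of the list. Capitals mark TATAAA on either strand and GGAATG, the core of the TEAD motif. In the Ogn window the TATAAA matches of both strands overlap.

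Aspn, chr13:49544193-49544492: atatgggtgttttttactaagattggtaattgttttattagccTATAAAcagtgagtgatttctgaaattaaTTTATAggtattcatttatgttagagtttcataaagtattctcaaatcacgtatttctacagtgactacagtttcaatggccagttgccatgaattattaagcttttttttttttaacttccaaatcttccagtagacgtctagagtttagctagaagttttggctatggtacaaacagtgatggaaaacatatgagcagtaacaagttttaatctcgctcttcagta
Omd, chr13:49582212-49582511: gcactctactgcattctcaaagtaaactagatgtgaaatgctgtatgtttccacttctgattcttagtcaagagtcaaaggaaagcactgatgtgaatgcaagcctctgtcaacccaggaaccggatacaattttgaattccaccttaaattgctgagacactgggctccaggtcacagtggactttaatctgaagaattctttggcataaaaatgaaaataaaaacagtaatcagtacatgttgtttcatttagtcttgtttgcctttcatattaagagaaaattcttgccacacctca
Ogn, chr13:49607765-49608064: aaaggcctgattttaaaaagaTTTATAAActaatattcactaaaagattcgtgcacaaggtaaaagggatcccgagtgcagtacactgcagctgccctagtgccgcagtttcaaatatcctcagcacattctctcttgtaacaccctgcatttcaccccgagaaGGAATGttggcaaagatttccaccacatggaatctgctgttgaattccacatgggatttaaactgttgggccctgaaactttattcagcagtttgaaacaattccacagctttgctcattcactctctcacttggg

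TATAAA was found in the Aspn and Ogn windows and, on either strand, in 13.6% of 32851 RefSeq windows of this length. GGAATG was found in the Ogn window and in 14.7% of all windows. The AP-1 motif TGANTCA was found in none of the 3 windows and in 7.81% of all. The Omd window held none of the 3 motifs. A match is a run of letters and not a site, and no match says only that these letters are not in the window.

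Collagen genes were high as a list, where over all genes 11.4% were higher and 9.04% lower in both libraries. All 6 measured fibrillar collagens were at least 1.5-fold higher in high-score cells of both libraries, with a median log2 ratio of 2.14 in RSPO3-OE and 1.97 in Ctrl. Col3a1, the type III collagen chain, stood at 6590 CPM in the RSPO3-OE and 2513 CPM in the Ctrl high-score cells, against 1169 and 433 CPM in the others. Col1a1, a type I chain, stood at 582 CPM in the RSPO3-OE and 324 CPM in the Ctrl ones, against 73.5 and 58.4 CPM. Of 5 other collagens of fibroblasts 4 were higher, among them the microfibrillar Col6a1 at 1198 CPM in the RSPO3-OE and 1224 CPM in the Ctrl ones, against 365 and 338 CPM. Of 9 basement membrane genes 5 were higher, led by the laminin chain Lama2, which had 4.56 (4.13 to 5.00) and 4.13 (3.33 to 4.96) on 96 UMIs in the RSPO3-OE and 37 in the Ctrl high-score cells. Of 12 genes that crosslink or trim collagen 4 were higher in both libraries, Loxl1, P3h1, Pcolce and Bmp1.

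Secreted matrix-linked proteins and complement were also high. Mgp, matrix Gla protein, an inhibitor of calcification, stood at 2436 CPM in the RSPO3-OE and 305 CPM in the Ctrl high-score cells, against 377 and 40.6 CPM in the others. Apod, a lipid-binding lipocalin, stood at 1803 CPM in the RSPO3-OE and 411 CPM in the Ctrl ones, against 270.0 and 87.7 CPM. Of 12 matrix proteases and inhibitors, 6 were higher and 2 lower in both libraries, against 11.4% and 9.04% of all genes. Adamts1, a protease of proteoglycans, had a log2 ratio of 2.61 (2.54 to 2.68) in RSPO3-OE cells and 2.14 (2.07 to 2.22) in Ctrl, and the protease inhibitor gene Timp1 had -1.27 and -1.12. All 6 measured complement genes were higher, with medians of 2.38 and 2.31. The others of the 15 genes that the naming rule gave as highest were Col5a2, Col4a5, Angptl7, Serpinf1 and Cebpd. Angptl7, a secreted angiopoietin-like protein, stood at 276 CPM in the RSPO3-OE and 60.4 CPM in the Ctrl ones, against 44.4 and 9.88 CPM, and Serpinf1, an inhibitor of vessel growth, at 264 CPM in the RSPO3-OE and 90.9 CPM in the Ctrl ones, against 63.0 and 15.4 CPM. Cebpd, a transcription factor of early adipocyte and inflammatory programmes, had 2.02 and 2.32. C1s1 and C1ra, proteases of the first complement component, had 2.61 and 2.51 in RSPO3-OE and 2.60 and 2.11 in Ctrl.

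**Figure D2:**
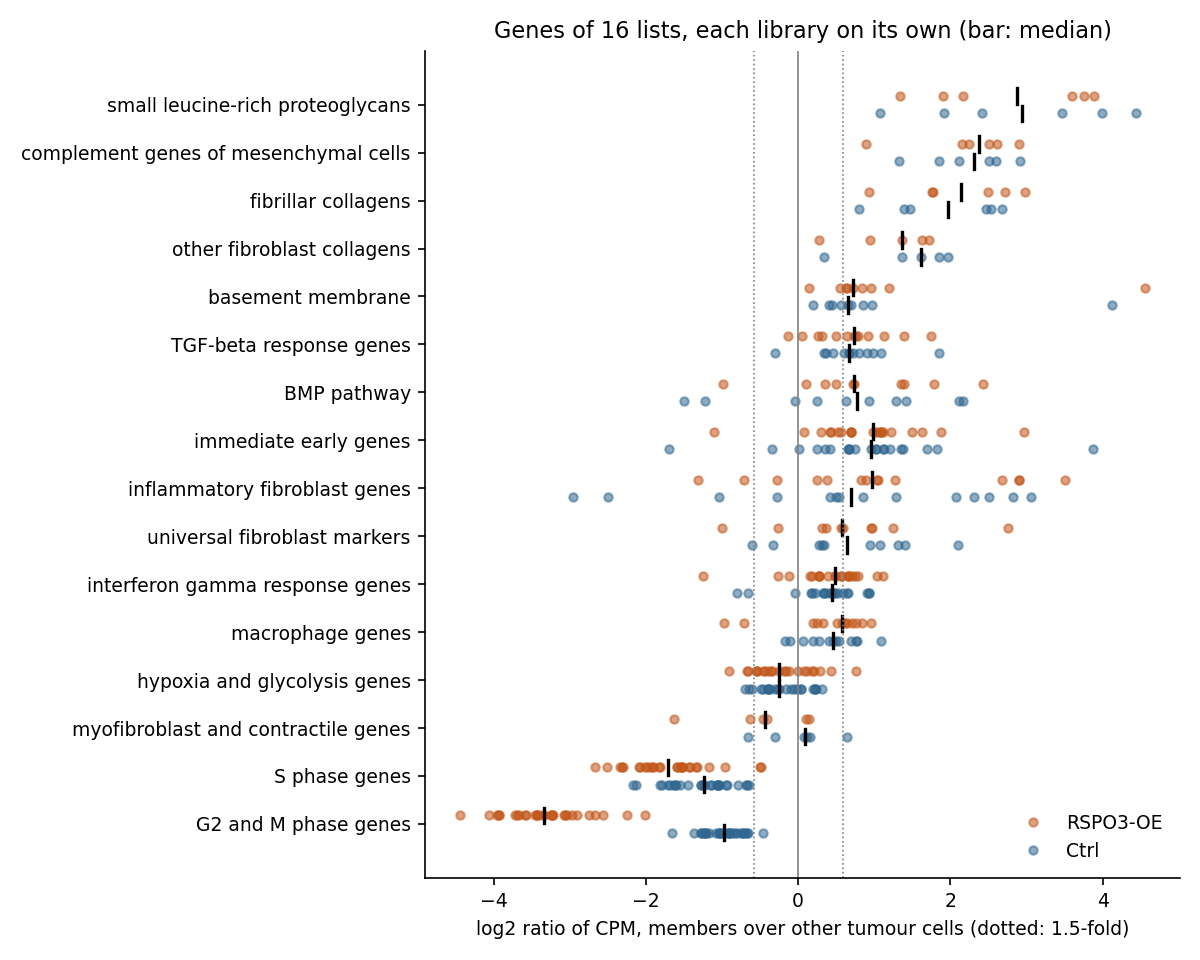
Log2 ratio of CPM, high-score over other tumour cells (x axis), for each measured gene of 16 lists, RSPO3-OE and Ctrl as separate points, with bars at the medians and dotted lines at 1.5-fold. Proteoglycan, complement and collagen genes lie to the right in both libraries, and G2 and M phase genes to the left, with medians of -3.34 in RSPO3-OE and -0.97 in Ctrl.

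The signalling and transcription factor lists are set beside all 11750 genes, of which 11.4% were higher and 9.04% lower in both libraries. Of 4 PDGF genes 1 was higher and 2 lower in high-score cells of both libraries. Among them the receptor gene Pdgfrb was higher, at 92.3 CPM in the RSPO3-OE and 119 CPM in the Ctrl high-score cells against 39.1 and 39.7 CPM in the others, and the ligand genes Pdgfa and Pdgfb were lower, with log2 ratios of -1.09 and -1.74 in RSPO3-OE and -1.24 and -1.61 in Ctrl. Of 8 Hedgehog genes 2 were higher, the co-receptor gene Cdon and the receptor and target gene Ptch1, while the ligand genes Shh and Ihh were at 0 UMIs. Of 13 TGF-beta genes 7 were higher, led by the co-receptor gene Tgfbr3 with 1.74 (1.63 to 1.85) and 1.85 (1.76 to 1.93). Of 10 BMP genes 6 were higher and 1 lower. Id3, which blocks differentiation factors and is a common BMP target, stood at 447 CPM in the RSPO3-OE and 151 CPM in the Ctrl high-score cells, against 83.3 and 33.7 CPM. Of 22 mesenchymal transcription factors 3 were higher, Prrx1, Osr2 and Nfix, and 1 lower, Runx1. The counts of transcription factors are not far from the shares over all genes, and those of TGF-beta and BMP genes are above the share of higher genes. Since the score chose the cells from the same RNA, nothing is read from any of these counts. Osr2 had the highest ratios of the transcription factors with 1.78 and 1.97.

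Growth arrest and immediate early genes were partly high. Of 16 growth arrest genes, 7 were higher and 1 lower in both libraries, against 11.4% and 9.04% of all genes. Btg2, an antiproliferative gene, stood at 1142 CPM in the RSPO3-OE and 599.5 CPM in the Ctrl high-score cells, against 285 and 166 CPM in the others. The lower gene was Cdkn1a, the p21 cell cycle inhibitor, at 33.8 CPM in the RSPO3-OE and 11.7 CPM in the Ctrl ones, against 115 and 37.3 CPM. Of 21 immediate early genes, which tissue dissociation can also induce, 12 were higher and 1 lower, with medians of 0.98 in RSPO3-OE and 0.96 in Ctrl. Nr4a3, an orphan nuclear receptor gene, had 2.97 and 3.87, and Fosl1 had -1.10 and -1.70. The part of tissue handling in these values was not tested.

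Among the 10 genes that the naming rule gave as lowest in high-score cells were 3 of amino acid and one-carbon metabolism, Asns, Psat1 and Mthfd2. Asns, which makes asparagine, stood at 14.6 CPM in the RSPO3-OE and 32.5 CPM in the Ctrl high-score cells, against 111 and 133 CPM in the others, and Psat1 and Mthfd2 of serine and one-carbon metabolism had log2 ratios of -2.92 and -3.37 in RSPO3-OE and -2.02 and -2.09 in Ctrl. Nppb, a natriuretic peptide gene, had -3.73 (-4.11 to -3.37) and -3.86 (-4.35 to -3.42). Esm1, a secreted proteoglycan best known from endothelium, had -2.77 and -2.38, and Upp1, which splits uridine, -2.35 and -2.54. Rrm2, a subunit of the enzyme that makes deoxynucleotides, had -2.30 and -2.13. Klra4 and Hmga1b, with -3.39 and -2.21 in RSPO3-OE and -2.23 and -1.86 in Ctrl, have near-identical copies, so their counts are uncertain. Tubb3, a tubulin best known from neurons, had -3.77 and -3.05. The keratin gene Krt8, the only epithelial gene of the list over 5 CPM in high-score cells, stood at 72.5 CPM in the RSPO3-OE and 32.8 CPM in the Ctrl ones, against 561 and 92.7 CPM. Of 23 hypoxia and glycolysis genes 0 were higher and 3 lower in both, against 11.4% and 9.04% of all genes.

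Cell cycle genes were low in high-score cells. Of 30 G2 and M phase genes 29 were at least 1.5-fold lower than in other tumour cells of both libraries, and of 28 S phase genes 26. Over all genes 9.04% were lower in both. Mki67, which encodes the Ki-67 antigen, stood at 15.8 CPM in the RSPO3-OE and 133 CPM in the Ctrl high-score cells, against 200.4 and 232 CPM in the others. With cells thinned to 2000 UMIs, at least 3 UMIs of the 30 G2 and M phase genes were read in 12 of 291 RSPO3-OE high-score cells, 4.12% (2.15 to 7.09), and in 79 of 562 Ctrl ones, 14.1% (11.3 to 17.2). These are called dividing here, by a threshold chosen after values had been seen. In the other tumour cells the shares were 48.8% in RSPO3-OE and 52.2% in Ctrl, with 1 and 3 cells too shallow to thin. Among cells of 10000 to 20000 UMIs the high-score shares were 0.971% in RSPO3-OE and 7.96% in Ctrl. Unthinned, they were 43.3% in RSPO3-OE and 43.2% in Ctrl high-score cells, against 84.4% and 83.8% in the others.

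**Figure D3:**
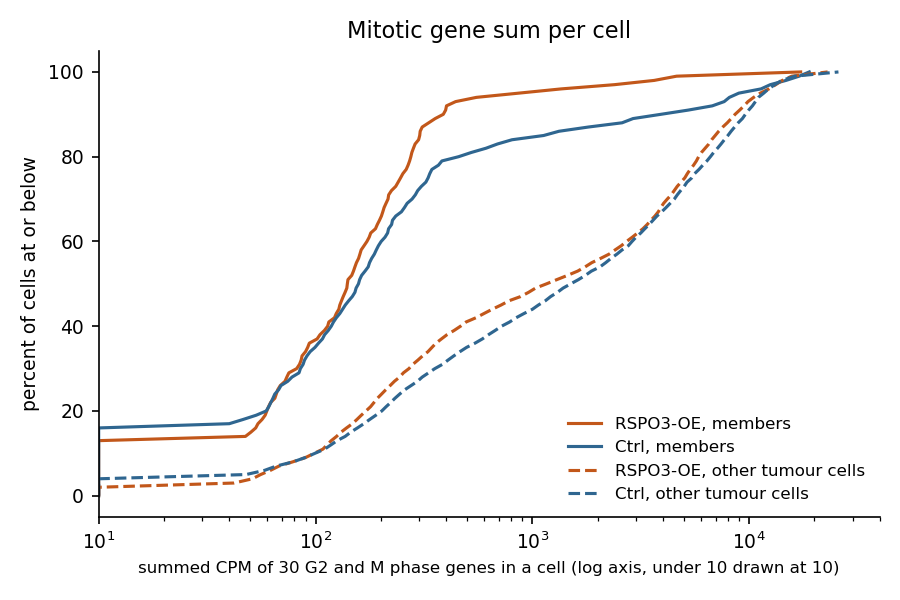
Summed CPM of 30 G2 and M phase genes in each cell (x axis) against the percent of cells at or below it (y axis), for RSPO3-OE and Ctrl, with high-score cells as solid and other tumour cells as dashed lines. The median high-score cell held 140.2 CPM in the RSPO3-OE and 158 CPM in the Ctrl library, and the solid curves part at their upper ends.

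The libraries differed mainly in the highest cells. The median high-score cell held 140.2 CPM of the 30 genes in RSPO3-OE and 158 CPM in the Ctrl library, and the 90th percentile was 388 and 3913 CPM. The 79 dividing Ctrl high-score cells held 568 CPM of Gas1 and 125 CPM of Lum, against 612 and 127 CPM in the 483 non-dividing ones. They held less RNA of Aspn, at 66.0 against 419.8 CPM, of Ogn, at 46.2 against 334 CPM, and of Col3a1, at 1254 against 2883 CPM. In RSPO3-OE, Aspn was at 171 CPM in 12 dividing and 832 CPM in 279 non-dividing high-score cells. Col1a1 had 804 CPM in dividing and 569 CPM in non-dividing cells there, and 229 and 352 CPM in Ctrl, the opposite direction. Dividing cells were deeper, at a median of 24681 UMIs in the RSPO3-OE library and 23738 in the Ctrl library, against 15722 and 13828.

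High-score cells with and without a Lum UMI differed among themselves. In RSPO3-OE the 121 cells with Lum held 4033 CPM of Mgp (3948 to 4119.9, Poisson interval), against 1305 CPM (1264 to 1347) in the 170 without. In Ctrl the 173 cells with Lum held 634 CPM (606 to 664), against 154 CPM (144 to 164) in the 389 without. Col1a1 was likewise higher with Lum, at 731 against 477 CPM in the RSPO3-OE and 529 against 230.0 CPM in the Ctrl cells. Aspn differed less, at 851 against 755 CPM and 396 against 314 CPM. Median depths with and without Lum were 15913 and 15499 UMIs in RSPO3-OE and 15028 and 14768 in Ctrl.

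Levels also differed along the score below the high-score cells. With the tumour cells in 10 groups by score, the highest being the high-score cells, the 7 fibrillar collagens summed to 733 CPM in the lowest group, 5351 CPM in the ninth and 8943 CPM in the highest in RSPO3-OE. In Ctrl these sums were 505, 1954 and 3843 CPM. The 30 G2 and M phase genes summed to 3619, 1828 and 436 CPM in the RSPO3-OE and to 3756, 2787 and 2023 CPM in the Ctrl library. The steps were not even. The G2 and M phase sum of the second group, 4933 CPM in RSPO3-OE and 4617 CPM in the Ctrl library, was above that of the lowest group, and in Ctrl the third to sixth groups lay at 4422, 4436, 4310.3 and 4429 CPM. The Ctrl collagen sum was 394 CPM in the second group, below that of the lowest.

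**Figure D4:**
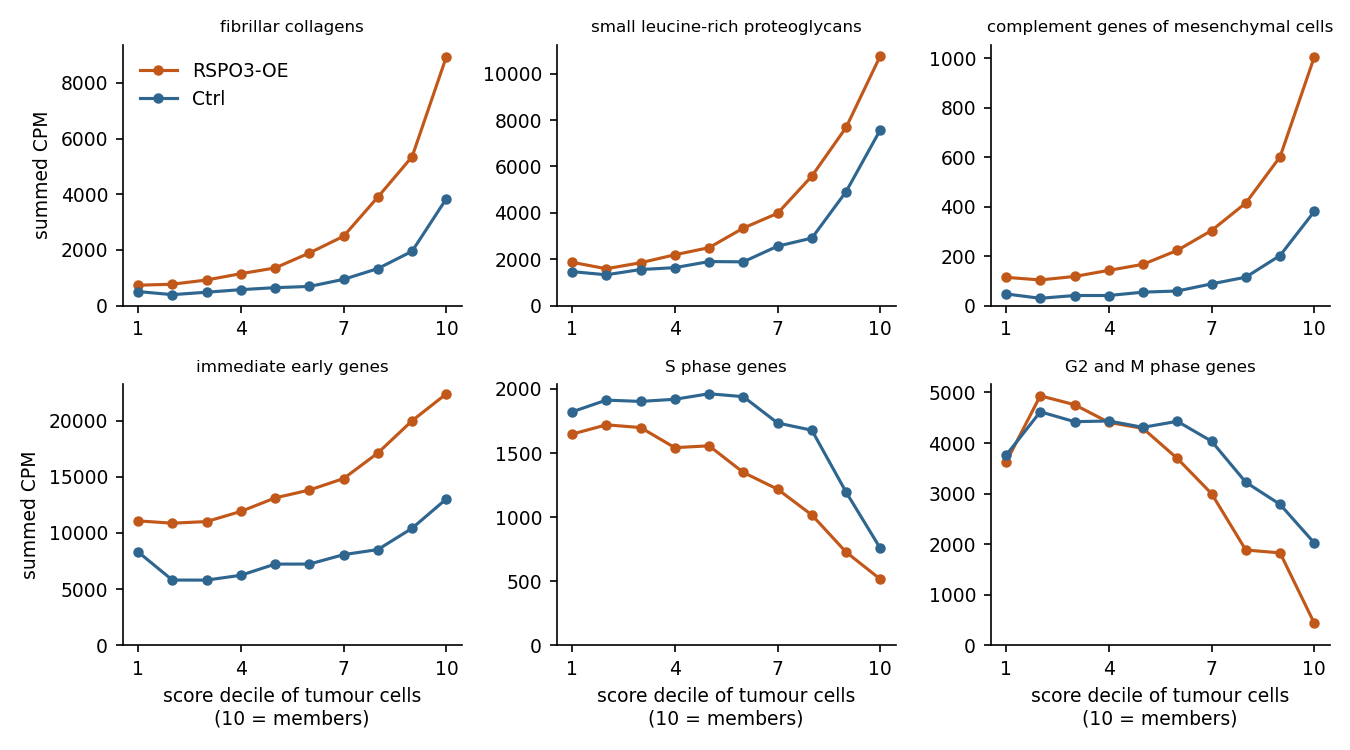
Summed CPM of 6 gene lists (y axis) in tumour cells of each score group (x axis, 10 being the high-score cells), for RSPO3-OE and Ctrl. The fibrillar collagen sum reaches 8943 CPM in the RSPO3-OE and 3843 CPM in the Ctrl library in group 10, where the G2 and M phase sum is lowest in both libraries.

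Between the libraries, high-score cells were compared on genes outside the score. Of 10036 genes, 810 were at least 1.5-fold higher in RSPO3-OE high-score cells, 8.07%, and 1669 lower, 16.6%, with a median log2 ratio of -0.14. In the other tumour cells 10.1% of 12897 genes were higher and 14.1% lower, with a median of -0.09. The overexpressed gene, Rspo3 (chromosome 10, 29452416 to 29535867, minus strand), checks the labels. It stood at 105 CPM (95.8 to 114) in RSPO3-OE high-score cells and at 0 UMIs in Ctrl ones, at least 8.35 higher on the log2 scale with a floor of 3 counts over the group. The RSPO3-OE other tumour cells held 107 CPM. A Rspo3 UMI was read in 15.5% of RSPO3-OE high-score cells and 22.7% of the others, or 7.22% and 9.31% thinned, against 2.62% of macrophages unthinned. The Rspo3 level thus differed little between high-score and other tumour cells.

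Most Wnt receptor and feedback genes were too low to compare between libraries. Of 20 such genes 8 were at 0 UMIs and 5 had 50 UMIs in high-score cells. Of these 5, 3 were higher in RSPO3-OE, Dkk2, Dkk3 and Apcdd1, against 8.07% of all genes. Dkk2, a secreted Wnt modulator, stood at 206 CPM in the RSPO3-OE and 111 CPM in the Ctrl high-score cells. The feedback gene Axin2 stood at 3.36 and 2.03 CPM, and Nkd1, Lgr5 and Sp5 were among those at 0.

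Summed over cells, mitotic genes were lower as a whole list in RSPO3-OE than in Ctrl high-score cells. The gap lay mainly in the highest cells. For the median high-score cell the list sum was 140 CPM with RSPO3-OE, against 158 CPM for Ctrl. At the 90th percentile it was 388 against 3913 CPM. Dividing cells numbered 12 of 291 against 79 of 562. The counts and ratios below thus describe pooled cells and not the typical one, and all 30 genes were read from the same cells. All 30 G2 and M phase genes were at least 1.5-fold lower in RSPO3-OE high-score cells, against 16.6% of all genes, with a median log2 ratio of -2.41. In the other tumour cells 1 of 30 was lower, with a median of -0.09. Cenpf, a kinetochore gene, stood at 13.6 CPM in the RSPO3-OE and 149 CPM in the Ctrl high-score cells, a log2 ratio of -3.45, against -0.23 in the other tumour cells. Top2a, a topoisomerase needed in mitosis, had -1.88 (-2.06 to -1.72) in high-score cells and 0.11 (0.09 to 0.12) in the others. Mki67 had -3.07 (-3.42 to -2.75) in high-score cells, and Ube2c and Cenpa, which act in mitotic protein turnover and at the centromere, had -2.91 and -2.55. The histone genes Hist1h2ap, Hist1h1e and Hist1h1b were also among the 10 lowest by rule, with -3.43, -3.05 and -2.49, and the histone genes are close copies of each other, so these counts are uncertain. The remaining ones were Stmn1, a microtubule regulator, with -1.61, and Rgs16, a brake on G protein signalling, with -1.88. Of 26 S phase genes 13 were lower and 0 higher. Among tumour cells below the median of summed cell cycle CPM, the median ratio of the 30 genes in high-score cells was -0.18, but that choice of cells uses the same genes, so nothing is read from it.

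Inflammatory and complement genes were higher in RSPO3-OE high-score cells. Of 13 inflammatory fibroblast genes 12 were higher, against 8.07% of all genes, with a median log2 ratio of 2.38. The monocyte-attracting chemokine genes Ccl7 and Ccl8 stood at 999.6 and 123 CPM in the RSPO3-OE and 159.9 and 9.63 CPM in the Ctrl high-score cells. All 7 measured complement genes were higher, with a median of 2.09. Serping1, the inhibitor of the C1 proteases, stood at 194 CPM in the RSPO3-OE and 11.1 CPM in the Ctrl, a log2 ratio of 4.12 (3.83 to 4.43). The nuclear regulator genes Nr4a3 and Csrnp1 and the receptor accessory gene Ramp2, also among the 10 highest, had 3.77 (3.43 to 4.12), 2.54 (2.33 to 2.75) and 2.63 (2.40 to 2.86). The other tumour cells differed in the same direction, with 13 of 15 inflammatory and 7 of 7 complement genes higher and medians of 1.51 and 1.69.

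Interferon gamma response and immediate early genes were also higher in both kinds of tumour cell, and type I interferon genes were mixed. Of 21 genes induced by interferon gamma, 18 had higher levels in RSPO3-OE high-score cells, with a median of 1.05, and 18 of 22 in the other tumour cells, with 1.12. Of 18 type I interferon genes 7 were higher and 1 lower in high-score cells, with a median of 0.45, and 8 of 18 were higher in the others, with 0.50, both medians under 1.5-fold. Iigp1, an interferon-induced GTPase gene, stood at 553 CPM in the RSPO3-OE and 129.5 CPM in the Ctrl high-score cells, and the chemokine gene Cxcl9 at 213 and 39.7 CPM. Of 21 immediate early genes 18 were higher in high-score cells and 17 in the others, with medians of 1.27 and 1.27. With 1 library a group, handling of the libraries and RSPO3 cannot be told apart here.

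The matrix lists held genes that were higher and genes that were lower in RSPO3-OE high-score cells. Over all 10036 genes compared there, 8.07% were higher and 16.6% lower, and over 12897 genes in the other tumour cells 10.1% and 14.1%. Of 6 fibrillar collagens 5 were higher in RSPO3-OE high-score cells, with a median of 0.82, and 2 of 6 in the others, with 0.44. Col3a1 had a log2 ratio of 1.39 (1.37 to 1.41) in high-score cells and 1.43 (1.42 to 1.45) in the others. Mgp had 3.00 (2.94 to 3.06) and 3.22 (3.17 to 3.26), and Omd 2.53 (2.28 to 2.79) and 2.41 (2.16 to 2.66). Col6a1 had -0.03 (-0.08 to 0.01) in high-score cells, an interval that includes 0. Of 11 basement membrane genes 4 were higher and 2 lower in RSPO3-OE high-score cells, the lower ones being Nid2, which encodes a nidogen, with -2.60 (-4.28 to -1.29) and the collagen XVIII gene Col18a1 with -1.17 (-1.37 to -0.98). Of 12 matricellular and elastic fibre genes 4 were higher and 2 lower, Emilin1 with -0.73 (-0.89 to -0.56) and Mfap4 with -0.72 (-1.47 to -0.02). The counts of lower genes in these 2 lists are near the share over all genes, so nothing is read from them. In the other tumour cells Nid2, Col18a1, Emilin1 and Mfap4 had -1.97, -1.58, -1.12 and -1.36. Of 13 mitochondrial transcripts 6 were lower in high-score cells and 4 in the others.

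The library ratio differed by at least 1.5-fold between high-score and other tumour cells for 949 of 10033 genes, 9.46%, with 287 above and 662 below. All 30 G2 and M phase genes were below, as were 7 of 26 S phase genes. Among the named genes above, Marcks, which links membrane and cytoskeleton, had 1.66 (1.45 to 1.87) in high-score cells and 0.24 (0.12 to 0.35) in the others. Ramp2, which partners the adrenomedullin receptor, had 2.63 and 1.57, and the growth arrest and stress genes Gadd45g and Gadd45b had 1.14 and 0.73 in high-score cells and 0.04 and -0.32 in the others. Rrad, a small GTPase gene, had 2.21 and 1.25. The lowest differences were those of Cenpf, Ccnb1, Mki67, Cdc20 and Ccna2, between -3.22 and -2.75. Rspo3 also falls under this rule, but its ratios are bounds against 0 UMIs and their difference was not read. Cst3, cystatin C, a secreted protease inhibitor, stood at 5184 CPM in the RSPO3-OE and 2809 CPM in the Ctrl high-score cells, and at 833 and 821 CPM in the others. Of the lists higher in RSPO3-OE, the ratio differed for 5 inflammatory genes above and 1 below of 13, for 0 interferon gamma genes above and 1 below of 21, and for 0 of 6 fibrillar collagens.

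**Figure D5:**
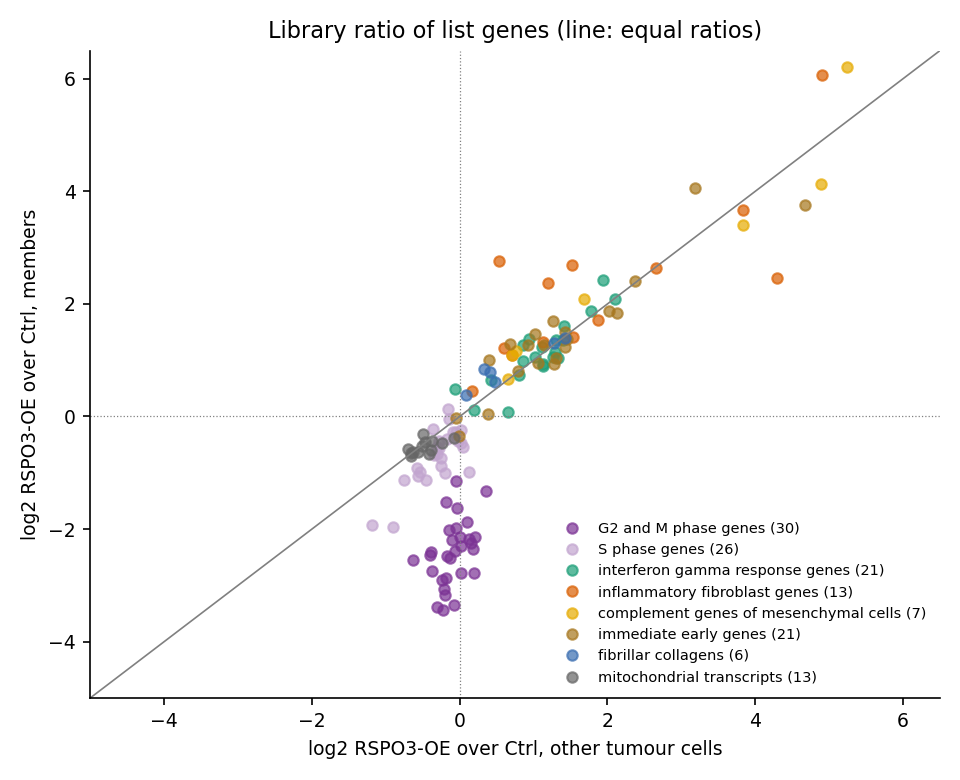
Log2 ratio of CPM, RSPO3-OE over Ctrl, of list genes in other tumour cells (x axis) and in high-score cells (y axis), with the line of equal ratios. The G2 and M phase genes lie below the line, with medians of -2.41 in high-score cells and -0.09 in the others, and interferon gamma genes near it, with medians of 1.05 and 1.12.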

How the data were processed

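The submitters made droplet single-cell 3′ libraries of MC38 tumour tissue, 1 of RSPO3-OE and 1 of Ctrl. Per the labels and the submitters' processing notes, reads were processed with Cell Ranger 3.0.1 on mm10, and the matrix headers name software version 3.1.0. The deposited values are raw UMI counts per gene and barcode for 32285 genes, with no normalization by the authors.

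Counts were summed over the cells of each class in each library, divided by the class total and given as CPM. Log2 ratios carry exact binomial 95% intervals, shares Clopper-Pearson ones and levels Poisson ones. A gene was compared if the 2 groups of cells held at least 50 UMIs of it together, and counted as higher or lower from 1.5-fold. Thinning drew 2000 UMIs from each cell, and Scrublet was run per library through scanpy 1.11.5 at an expected rate of 0.05. Scripts ran in Python 3.11.15 with numpy 2.4.6, scipy 1.17.1, pandas 2.3.3 and matplotlib 3.10.9, and the ratios and intervals were tested on simulated data. Coordinates are from GENCODE vM21, which holds 99.6% of the gene IDs.

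The cells, the 43 gene lists and the tests were chosen with earlier results of these data known. Genes were named by rule. For high-score over other tumour cells these were the 15 highest and 10 lowest in both libraries with at least 50 CPM, between libraries the 10 highest and 10 lowest with at least 100 CPM, for the difference of library ratios the 6 highest and 6 lowest, and of each list up to 3 high and 2 low genes. Score, mitochondrial, ribosomal, haemoglobin, immunoglobulin and predicted genes were left out of it. Defining markers at 0 UMIs, genes listed to name all members of a count, Dpt, Thy1, Col14a1, Fap, Ly6a, Cd34, Msln and Acta2 were named after their values were seen. Cell classes were rebuilt from marker UMIs by the rule above and not taken from the authors, so a difference from the study may come from that. The alternatives tried were 17 planned ones and 2 added after seeing the data.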

Additional observations from a re-analysis of the deposited data

Results flagged for a closer look

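Cells without a Hmga2 UMI are outside the rule for tumour cells. Of those that also lacked Ptprc and Y-linked UMIs, 207 of 578 in RSPO3-OE, 35.8% (31.9 to 39.9), and 371 of 951 in Ctrl, 39.0% (35.9 to 42.2), reached the lowest score of a high-score cell. These cells held 979 CPM of Aspn in the RSPO3-OE and 518 CPM in the Ctrl cells, and 7133 and 3808 CPM of Col3a1. Their median depth was 14001 UMIs in RSPO3-OE and 10436 in Ctrl.

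For 6 named genes the library ratio had opposite signs in high-score and other tumour cells, each interval excluding 0, and none of these differences was tested. The log2 ratio in high-score cells minus that in the others was -2.97 for Ccnb1, -1.99 for Top2a and -1.80 for Stmn1. It was -1.15 for Klra4, -0.72 for Tubb3 and 1.05 for Gadd45b, the only one of the 6 that was higher in RSPO3-OE high-score cells.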

How the results depend on the processing

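The share of high-score cells was lower in RSPO3-OE at each pooled score threshold tried, 3.16% against 6.81% for the highest 5% and 14.7% against 25.1% for the highest 20%, and was 9.99% against 10.0% when set within each library, by construction. The dividing share stayed lower in RSPO3-OE than in Ctrl high-score cells. It was 9.18% in Ctrl for the highest 5%, 10.1% in RSPO3-OE and 20% in Ctrl for the highest 20%, 7.12% in RSPO3-OE for a thinned score, 17.9% in Ctrl with 2 Hmga2 UMIs and 18.3% in Ctrl without Islr. At 10000 to 20000 UMIs it was 0.971% in RSPO3-OE and 7.96% in Ctrl, and in cells low in cell cycle genes 0.358% and 1.26%. Genes higher and lower in high-score cells of both libraries numbered 1340 and 1062, but 488 and 503 at 10000 to 20000 UMIs and 732 and 517 in cells low in cell cycle genes. Both limits leave fewer cells, so fewer genes can reach the 50 UMIs needed. Lists with a median past 1.5-fold in both libraries numbered 18, and 11 with the thinned score, at 10000 to 20000 UMIs and in cells low in cell cycle genes. With 10 in place of 50 UMIs per gene 1261 genes were higher in RSPO3-OE high-score cells and 1911 library ratios differed, against 810 and 949, and 584 ratios differed in cells low in cell cycle genes. The S phase median between libraries turned to 0.0931 for the highest 5%. The cause of these shifts was not tested. Over all alternatives the median of high-score over other tumour cells for fibrillar collagens lay between 1.33 and 2.16 in RSPO3-OE and between 1.57 and 2.17 in Ctrl, and the G2 and M phase median of RSPO3-OE over Ctrl high-score cells between -2.66 and -0.18. The other counts of genes and lists stayed within 1.5 times, and the other shares of high-score cells within their counting interval. Of 7140 values of single genes and lists under the alternatives, 2260 left their counting interval or moved by 0.1 or more, with 1 change of sign among ratios past 1.5-fold. No paired analysis was possible because each group has 1 library, so the groups share only 1 replicate number. Depth limits genes under 50 UMIs, which include most Wnt feedback genes.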

Other observations

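Interferon, antigen presentation and mitochondrial genes were also compared between high-score and other tumour cells of the same library, where 11.4% of all genes were higher and 9.04% lower in both libraries. Of 15 class I presentation genes 1 was higher in high-score cells of both libraries, the non-classical class I gene H2-T23, with log2 ratios of 1.34 in RSPO3-OE and 1.05 in Ctrl. Of 21 interferon gamma response genes 5 were higher and 1 lower, and of 18 type I interferon genes 5 were higher. The medians were 0.49 in RSPO3-OE and 0.44 in Ctrl for interferon gamma response genes, and 0.41 and 0.56 for type I interferon genes. Of 13 mitochondrial transcripts 0 were higher and 0 lower.

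Heat shock and oncofetal genes gave few calls, where over all genes 11.4% were higher and 9.04% lower in both libraries. Nothing is read from these counts. Of 14 heat shock genes 0 were higher and 2 lower, the chaperone genes Hsp90aa1 and Hspd1. Of 6 oncofetal genes 1 was higher, Lin28b, and 1 lower, Hmga1, at 23.1 CPM in the RSPO3-OE and 45.2 CPM in the Ctrl high-score cells against 129 and 164 CPM in the others.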
